A study of Homo sapiens with 7 samples.

Results

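N-CoR, the nuclear receptor co-repressor, was mapped by ChIP-seq in Kasumi-1 cells, and 1758 of its 10004 deposited summit windows lay apart from every window of AML1, AML1-ETO and p300. These 1758 windows, called N-CoR sites alone here, are 100 bp long and were chosen by the measured peak positions, as those that share no base with a window of the other 3 factors. The one mitochondrial N-CoR window was set aside, which leaves 10003 windows on nuclear chromosomes. Of the remainder, 7607 shared at least 1 base with an AML1 or AML1-ETO window (N-CoR with a Runx protein) and 638 shared a base with a p300 window but with neither Runx protein.

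Kasumi-1 is an established acute myeloid leukaemia line with the t(8;21) translocation, which joins AML1 (RUNX1) to the co-repressor ETO, and the untreated cells were harvested in log-phase growth. Beside N-CoR, lists of 11020 windows for p300, 19632 for H3K4me3, 18087 for AML1-ETO and 11692 for AML1 were analysed. The AML1 antibody recognises the C-terminus, which the fusion protein lacks, so that both proteins have a list of their own. Replicate libraries were pooled before peaks were called, so there is 1 list per antibody and no error between replicates, and the read depth behind a window is unknown from the lists. All intervals given are exact Clopper-Pearson 95% intervals over windows, or 95% Newcombe intervals for a difference of 2 shares, and they cover counting error only.

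N-CoR does not bind DNA by itself. It is brought to chromatin by unliganded nuclear receptors, by repressors such as BCL6 and by proteins of the ETO family, and it works in a complex with the histone deacetylase HDAC3 and with TBL1X, TBL1XR1 and GPS2. ETS factors, PU.1 among them, recognise a GGAA core, Runx proteins recognise TGTGGT, and nuclear receptors recognise AGGTCA alone or in repeats. H3K4me3 marks the nucleosomes beside active transcription starts, and p300 is an acetyltransferase found at active enhancers and promoters.

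The windows that show the sequence classes best are printed here, each 5′ to 3′ on the plus strand of GRCh37. The windows of the GGAA repeats and of the single consensus sequences have no AML1, AML1-ETO or p300 summit within 1000 bp. They are the lowest-numbered such windows for their sequence outside annotated untranslated regions, several for the repeat and a single window for each other sequence. Of the 3 histone windows further on, that of H2BC5 also has no such summit within 1000 bp. The first set holds tandem GGAA repeats, a feature more frequent in these sites than in the other N-CoR windows, with runs of at least 2 adjacent GGAA (or TTCC on the other strand) in capitals. They lie in introns near SORD (chr15:45330256-45330355), ZDHHC3 (chr3:45003952-45004051) and DNMT3A (chr2:25639647-25639746), and between genes with OPA1 as the nearest protein-coding start (chr3:193615933-193616032).
SORD: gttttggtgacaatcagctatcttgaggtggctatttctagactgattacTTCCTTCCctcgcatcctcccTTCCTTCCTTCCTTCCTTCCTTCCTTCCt
OPA1: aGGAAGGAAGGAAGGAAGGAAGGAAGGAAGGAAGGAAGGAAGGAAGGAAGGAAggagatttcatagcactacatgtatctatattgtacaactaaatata
ZDHHC3: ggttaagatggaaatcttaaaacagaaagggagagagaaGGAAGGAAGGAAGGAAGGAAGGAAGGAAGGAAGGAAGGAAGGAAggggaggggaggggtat
DNMT3A: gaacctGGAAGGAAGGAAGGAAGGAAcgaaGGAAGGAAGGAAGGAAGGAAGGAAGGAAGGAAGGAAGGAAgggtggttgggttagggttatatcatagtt

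The second set shows single consensus sequences in capitals. The ETS core AGGAAG is shown in the intergenic window nearest to TRIML1 (chr4:189800875-189800974), the PU.1 sequence GAGGAA in an intron of PTPRA (chr20:2881995-2882094), CCGGAA in an intron beside ERCC1 (chr19:45943171-45943270), the AP-1 sequence TGANTCA upstream of NPAS4 (chr11:66185754-66185853), and the nuclear receptor sequence AGGTCA, which occurs here on the minus strand as TGACCT at both marked places, in an intron of SKI (chr1:2187017-2187116).
TRIML1: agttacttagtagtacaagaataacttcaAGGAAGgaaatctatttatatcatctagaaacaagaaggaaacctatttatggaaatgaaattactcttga
PTPRA: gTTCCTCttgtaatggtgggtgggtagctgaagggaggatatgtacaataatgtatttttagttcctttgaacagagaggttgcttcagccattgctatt
ERCC1: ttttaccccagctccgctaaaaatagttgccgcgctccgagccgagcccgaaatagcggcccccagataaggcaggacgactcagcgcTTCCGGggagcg
NPAS4: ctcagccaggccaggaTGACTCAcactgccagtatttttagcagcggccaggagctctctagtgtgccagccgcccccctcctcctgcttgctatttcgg
SKI: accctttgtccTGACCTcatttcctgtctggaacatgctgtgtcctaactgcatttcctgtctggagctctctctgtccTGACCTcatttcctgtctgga

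The distances to the other factors describe what the rule selected and are given without a test. The median N-CoR site alone lay 4481 bp from the nearest summit of the 3 other lists (quartiles 455 and 22861 bp). For 194 of the 1758 sites that distance was 100 to 149 bp, so that their windows missed a neighbour's by less than 50 bp, and in all 571 sites had another summit within 1000 bp. The other 1187 sites (67.5%) had none within 1000 bp, and 252 lay at least 50 kb from any. Among the 571, a p300 summit was the nearest in 267, an AML1-ETO summit in 215 and an AML1 summit in 92, ties counted under each. The edge of the rule is narrow: the windows on chromosomes 3, 5 and 12 closest inside it had a summit at 100 bp, those closest outside it had one at 98 or 99 bp, and none of these 6 windows held 2 adjacent GGAA. In all, 810 N-CoR windows that the rule left out had their nearest summit at 50 to 99 bp.

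Whether N-CoR sites alone were more or less often at promoters than N-CoR windows with a Runx protein depended on how they were defined. Of the 1758 sites, 568 (32.3%, 95% interval 30.1 to 34.6) lay within 1000 bp of an annotated transcription start, against 31.0% (30.0 to 32.1) of those with a Runx protein. The difference of 1.29 percentage points has an interval of −1.10 to 3.73, and the share was higher for the sites alone on 12 of 23 chromosomes. It was 5.34 points (3.20 to 7.50) with windows of 25 bp to either side and 9.92 points (7.70 to 12.2) when p300 windows were not used in the rule, but −12.4 points (−14.7 to −9.90) when sites alone had no other summit within 500 bp and were compared with all N-CoR windows that had a Runx summit within that distance. N-CoR windows with p300 and no Runx protein stood apart, with 64.7% at promoters, and the sites alone were 32.4 points below them (interval of the difference −36.6 to −28.0). The remaining sites alone lay in introns (760, 43.2%), between genes (248, 14.1%), within 10 kb upstream of a gene (132, 7.51%) or in exons (50, 2.84%).

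H3K4me3 lay mostly where promoters did. A summit of this mark lay within 1000 bp of 467 sites alone (26.6%, 24.5 to 28.7) and of 23.9% of the windows with a Runx protein, a difference of 2.65 points (0.42 to 4.97) that was positive on 16 of 23 chromosomes. Without chromosome 6, which carries the main histone gene cluster, the difference was 1.70 points and its interval reached below 0 (−0.60 to 4.09), and with H3K4me3 counted within 500 bp it was −0.45 points (−2.37 to 1.57). In the first part of the list, up to its middle, it was 1.10 points (−2.72 to 5.41). With windows of 25 bp to either side it was 7.76 points (5.73 to 9.82), and it turned to −10.7 points (−12.8 to −8.46) when both classes were redefined by summits within 500 bp. Of the sites alone at promoters, 393 of 568 (69.2%) had H3K4me3 within 1000 bp, and of the 467 sites near the mark 84.2% were at a promoter. Only 19 sites alone (1.08%) had an H3K4me3 summit closer than 100 bp, and 518 (29.5%) were more than 50 kb from any.

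**Figure D1:**
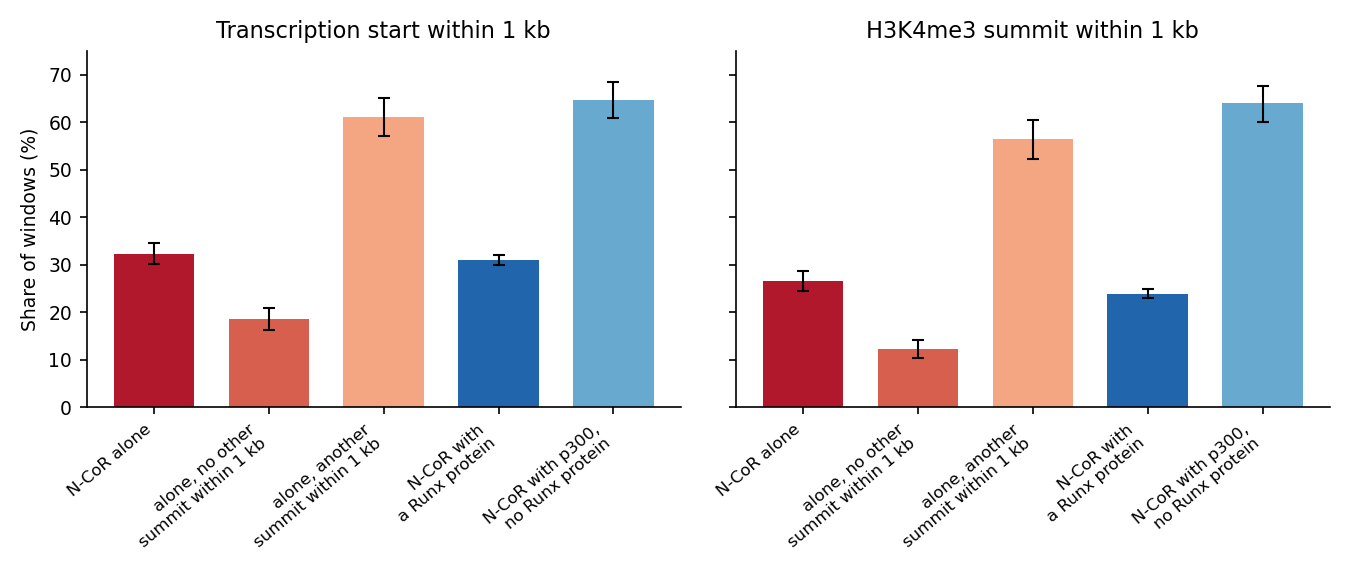
Share of N-CoR windows (%) with a transcription start (left) or an H3K4me3 summit (right) within 1 kb, for all 1758 sites alone, for those with no other or another summit within 1 kb, and for N-CoR windows with a Runx protein or with p300 only. Bars are shares and lines are exact 95% intervals over windows. Sites alone with no other summit within 1 kb are lowest in both panels (18.4% and 12.2%).

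The sites were divided into 2 kinds by whether another summit lay within 1000 bp, a chosen distance. The 1187 sites with no AML1, AML1-ETO or p300 summit within 1000 bp were seldom at promoters (18.4%, 16.3 to 20.8) and seldom near H3K4me3 (12.2%, 10.4 to 14.2), which is 12.6 and 11.7 points below the windows with a Runx protein (intervals −14.9 to −10.0 and −13.7 to −9.50). The 571 sites with another summit within 1000 bp were at promoters in 61.1% and near H3K4me3 in 56.4% of cases, and the windows with p300 in 64.7% and 63.9%. The median distance to a start was 6519 bp in the first kind (95% interval 5590 to 7551), 373 bp in the second (282 to 494), 3912 bp in all sites alone and 3873 bp in windows with a Runx protein. The base composition differed in step, with a median GC content of 45% in the first kind, 56% in the second, 53% with a Runx protein and 59% with p300. The division uses the distance to the same 3 lists as the rule, so these values are a description of both kinds.

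Consensus sequences were counted on both strands in the 100 bp of each window and, as background, in windows of the same length 1000 bp to either side. Of 45 consensus sequences searched, 13 (28.9%) were more frequent in the sites alone than in their flanks, with an interval of the difference above 0, and 7 (15.6%) were less frequent. Compared with the N-CoR windows with a Runx protein, 7 were more frequent and 11 less. ETS sequences led. AGGAAG was found in 811 sites alone (46.1%, 43.8 to 48.5) and in 11.3% of flanks, a difference of 34.8 points (32.2 to 37.3) that was positive on 23 of 23 chromosomes.

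Between the sites alone and the windows with a Runx protein, the share with the ETS core gave no firm difference. N-CoR windows with a Runx protein held AGGAAG in 47.2% of cases, and the difference to the sites alone was −1.09 points (−3.66 to 1.50). The direction depended on which windows were compared: it was −5.88 points (−8.52 to −3.20) without windows that hold 3 or more adjacent GGAA, which contain AGGAAG by their letters, and 6.06 points (3.02 to 9.09) when both classes were redefined by summits within 1000 bp. GAGGAA, the PU.1 sequence, which shares its bases with AGGAAG in many windows, stood at 30.4% in the sites alone, 31.5% with a Runx protein and 8.96% in the flanks. Sites with no other summit within 1000 bp carried AGGAAG in 52.4% of cases, and those with one in 33.1%. Away from H3K4me3 the share was 53.6%, and near it 25.5%. CCGGAA, the form typical of ETS sites at promoters, went the other way, with 15.2% near H3K4me3 and 3.87% away from it. It stood at 6.88% in all sites alone and 9.95% with a Runx protein (difference −3.07 points, −4.36 to −1.63). In all, 1038 sites alone (59.0%) held at least 1 of the 4 ETS sequences searched (the 3 above, or ACTTCCG, which overlaps them), 3.25 points below the windows with a Runx protein (−5.81 to −0.73).

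**Figure D2:**
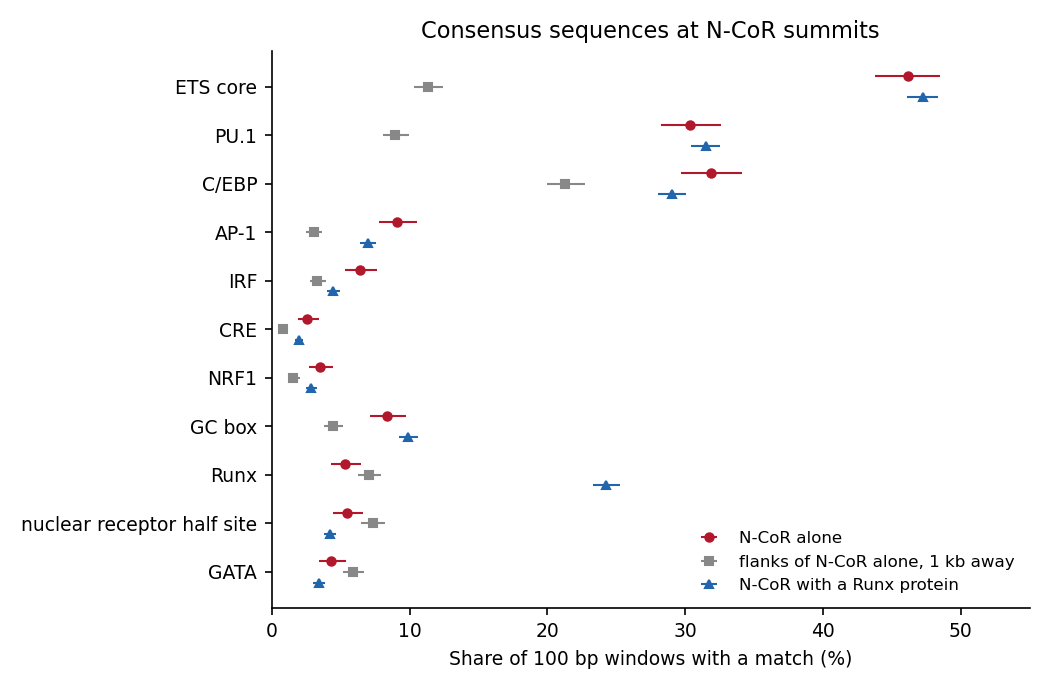
Share of 100 bp windows (%) that hold each consensus sequence, for N-CoR sites alone, for their flanks 1 kb away and for N-CoR windows with a Runx protein. Points are shares and lines are exact 95% intervals. The ETS core stands at 46.1% and 47.2% in both N-CoR classes, while the Runx sequence separates them (5.29% and 24.3%).

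Runx sequences were scarce, and since the rule leaves out Runx peaks they are given as a description. TGTGGT was found in 93 sites alone (5.29%, 4.29 to 6.44), in 7.05% of their flanks and in 24.3% of the windows with a Runx protein, and TGCGGT in 0.57%, 1.14% and 6.74%. Their places along the window were also more even. Of 190 TGTGGT matches within 100 bp of the sites alone, 53.2% were within 50 bp of the summit, against 65.4% of the 3267 matches in windows with a Runx protein. For AGGAAG the values were 68.6% of 3492 and 66.4% of 8114 matches, where a window with a GGAA run adds several matches and so weighs more.

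**Figure D3:**
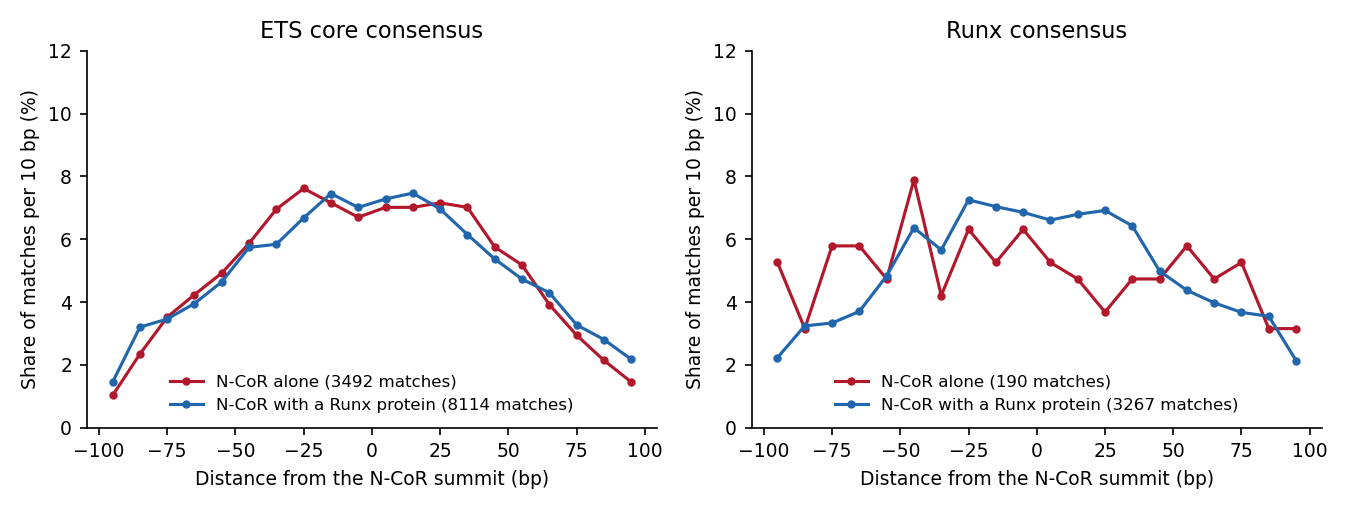
Position of ETS core matches (left) and Runx matches (right) along the 200 bp around the N-CoR summit, as the share of each class's matches in 10 bp bins (%), for sites alone and for windows with a Runx protein. Windows with GGAA runs add several ETS core matches each. ETS core matches gather around the summit in both classes, and Runx matches do so in the windows with a Runx protein.

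Nuclear receptor sequences were not frequent at the sites alone. AGGTCA, the sequence that a single receptor subunit contacts, was found in 96 sites (5.46%, 4.45 to 6.63), below the 7.31% in their flanks (difference −1.85 points, −3.18 to −0.43). The share was 1.25 points above that of the windows with a Runx protein (4.21%, interval of the difference 0.18 to 2.49), but this interval reached 0 when either of chromosomes 1 and 2 was left out, in the first part of the list up to its middle (0.85 points, −0.88 to 3.36), without p300 windows in the rule (0.72, −0.21 to 1.75) and with both classes redefined by summits within 1000 bp. GGGTCA was found in 3.30% of sites and 3.84% of flanks. Direct repeats of AGGTCA, the arrangement that receptor dimers bind, were nearly absent: spacings of 0 and of 3 bases were found in 1 site each, and spacings of 1, 2, 4 and 5 bases, inverted repeats with 0 to 3 and everted repeats with 4 to 8 bases between them in none. The sequences TTCNNAGAA of BCL6 (1.99% of sites, 2.19% of flanks) and AATCNNNGC of GFI1 (3.19% and 8.22%), 2 repressors that work with co-repressors, were not above the flanks either. Windows with a Runx protein were also below their own flanks, at 4.21% against 7.24% for AGGTCA and 2.80% against 8.18% for AATCNNNGC. The low shares are thus not particular to the sites alone. Flanks were not masked for repeated elements, whose part was not tested. A consensus match or its absence says nothing on whether the factor itself was bound.

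Other sequences above the flanks included those of factors of enhancers and of promoters. The AP-1 sequence TGANTCA was found in 160 sites alone (9.10%) and in 3.04% of flanks, on 23 of 23 chromosomes above them, and was 2.13 points more frequent than in windows with a Runx protein (0.74 to 3.67). The degenerate C/EBP sequence TTNNGNAA stood at 31.9% against 21.3% in flanks and 29.0% with a Runx protein (difference 2.82 points, 0.44 to 5.25), and the IRF sequence GAAANNGAA at 6.37%, 3.30% and 4.46% (difference 1.91 points, 0.76 to 3.23). These 3 were more frequent away from H3K4me3 than near it, AP-1 at 10.9% against 4.07%. The CRE sequence TGACGT (2.56% against 0.82% in flanks), the NRF1 sequence GCGCANG (3.47% against 1.56%) and the GC box GGGCGG (8.36% against 4.44%) were more frequent where H3K4me3 was, with shares of 7.28%, 9.42% and 24.8% near H3K4me3 and 0.85%, 1.32% and 2.40% away from it. Also above the flanks were the short Myb sequence AACNG (49.2% against 40.6%), CACGTG (2.73% against 1.19%) and the PLAG/MAZ sequence GGGGAGGG (3.98% against 1.34%). Against windows with a Runx protein, the AACNG difference was −6.06 points (−8.65 to −3.47). Median GC content was 48% in the sites alone and 53% with a Runx protein, and its part in the differences between these classes was not tested. No link between AP-1 and ETS sequences was seen, with AP-1 in 8.86% of sites with and 9.44% of sites without one of the 4 ETS sequences.

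A count of all 6-base sequences, with reverse complements joined, pointed to the same core. Of 2080 such sequences, 251 (12.1%) were above the flanks with intervals that did not overlap, and 385 (18.5%) were below. Of the 48 that contain GGAA or TTCC, 25 were among those above, as were 8 of the 10 with the largest difference. AGGAAG came first, followed by ACTTCC (29.2% of sites, 4.92% of flanks) and GAGGAA. Among sequences that hold neither tetramer, GAAGGA (26.2% against 8.28%) and AGAGGA (21.0% against 8.13%) led, both of which can run into an ETS core, and GAGTCA (9.95% against 4.44%) forms part of the AP-1 sequence. AAATAG stood at 11.9% of sites against 6.71% of flanks, and at 6.74% of windows with a Runx protein.

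Tandem repeats of GGAA were more frequent in the sites alone than in the other N-CoR windows. This feature was chosen after its values had been seen. Runs of at least 3 adjacent GGAA were found in 160 sites alone (9.10%, 7.80 to 10.5), in 86 windows with a Runx protein (1.13%, 0.91 to 1.39), in 6 windows with p300 only (0.94%) and in 5 of 3516 flanking windows (0.14%). The difference between the sites alone and the windows with a Runx protein was 7.97 points (6.69 to 9.42), and it was positive on 23 of 23 chromosomes, with the share among sites alone ranging from 2.38% to 18.6%. Longer runs were more one-sided still, with at least 8 copies in 78 sites alone (4.44%) and in 15 windows with a Runx protein (0.20%). The AML1, AML1-ETO and p300 lists as a whole held runs of at least 3 in 0.37%, 0.39% and 0.33% of their windows.

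Seen from the repeat, N-CoR windows with long runs were mostly alone, though the share did not rise at each step. Among windows with no GGAA, 23.2% of 1001 were alone, among those whose longest run was 1 GGAA 15.2% of 7945, among those with 2 adjacent copies 19.6% of 805, with 3 copies 38.0% of 71, with 4 copies 65.7% of 35, with 5 copies 52.4% of 21 and with 6 copies 58.3% of 12. With at least 8 copies, 78 of 94 (83.0%, 73.8 to 89.9) were alone. A GGAA of any kind was common everywhere, in 86.8% of sites alone, 91.1% of windows with a Runx protein and 60.9% of the flanks of the sites alone. Of GGAA pairs on 1 strand at fixed distances of 4 to 40 bp, those 8, 12 and 16 bp apart occurred in 10.9%, 10.9% and 9.67% of sites alone and those 7 and 9 bp apart in 3.64% and 2.96%. Pairs 8 bp apart are part of every run of 3 copies, so these shares describe the runs themselves.

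**Figure D4:**
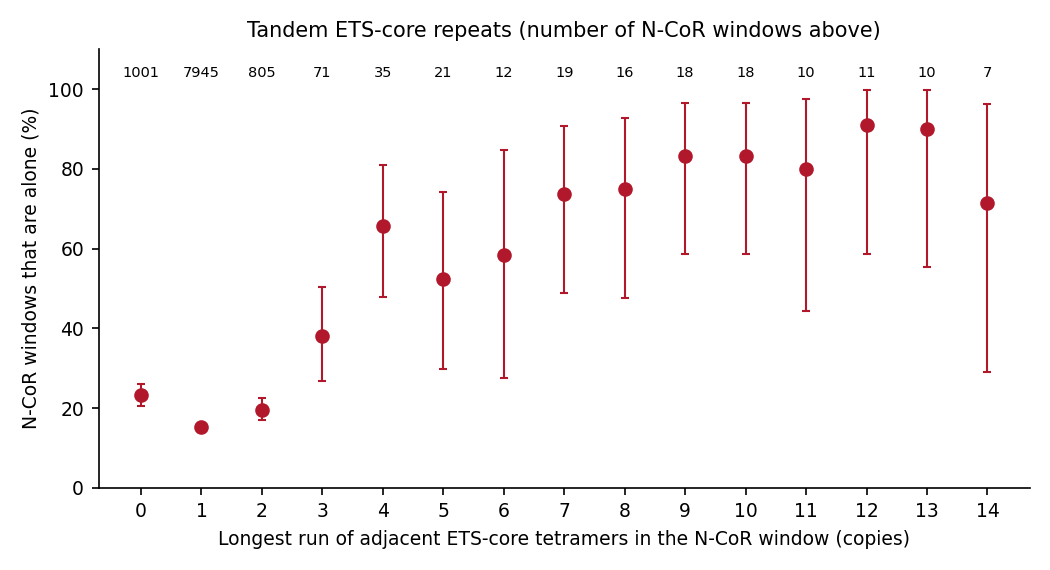
Share of N-CoR windows that are alone (%) by the longest run of adjacent ETS-core tetramers in the window, from 0 to 14 copies (runs with fewer than 5 windows are left out). Points are shares, lines are exact 95% intervals and the numbers above give the N-CoR windows of each run length. The share is 15.2% at 1 copy and 65.7% at 4 copies.

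The repeat-bearing sites were seldom at promoters. Of the 160 sites alone with at least 3 copies, 20 (12.5%) were at a promoter and 6.88% had H3K4me3 within 1000 bp, which is 21.8 and 21.7 points below the sites with fewer copies (intervals −26.7 to −15.4 and −25.4 to −16.2). They were in introns in 87 cases and between genes in 33, and 136 of them had no summit of another factor within 1000 bp. Among sites alone with no such summit the gap was smaller. There, 9.56% (5.19 to 15.8) of the 136 were at a promoter, against 19.6% (17.2 to 22.1) of the 1051 with fewer copies. For H3K4me3 the shares were 5.15% (2.09 to 10.3) and 13.1% (11.1 to 15.3). AP-1 sequences were rare among all 160 (1.25% against 9.89% with fewer copies), and the Runx sequence stood at 3.13% against 5.51%. A run leaves less of the 100 bp window for other sequences, and the part of this was not tested. The middle of the run lay a median of 32 bp from the summit (quartiles 19 and 46.2 bp) in the 148 sites that held 4 or more copies within 100 bp. Whether reads align uniquely in such repeats, and how the input library behaved there, was not tested.

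Of the 10 lowest-numbered sites with 4 or more adjacent GGAA and no other summit within 1000 bp, the one near SORD, the sorbitol dehydrogenase gene, held 7 copies and lay 129384 bp from the nearest AML1-ETO summit, 162369 bp from p300 and 313639 bp from AML1. The site between genes nearest to OPA1, which codes for a mitochondrial fusion protein, held 13 copies, 28067 bp from AML1. Both were thus well away from any AML1, AML1-ETO or p300 summit. Others had a neighbour within 5 kb, such as the site in an intron beside ZDHHC3, a palmitoyltransferase gene, with 11 copies and a p300 summit at 4682 bp, and that near DNMT3A, a DNA methyltransferase gene, with 10 copies and an AML1 summit at 4167 bp. The sites nearest to KCNA2 (13 copies), RNF182 (14), DUSP6 (10), BAHCC1 (13), CYYR1 (9) and RBMX (10) completed the set. The last 6 lay at 50816 bp or less from AML1-ETO for RBMX, DUSP6, KCNA2 and BAHCC1, and at 97775 and 145103 bp for CYYR1 and RNF182.

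A protein-coding gene was taken as the target of a site only in the sense that its start was the nearest. Of 19821 protein-coding genes, 1501 (7.57%) were nearest to a site alone, 1302 of them to 1 site, 149 to 2 and 50 to at least 3. A site alone lay within 1000 bp of a protein-coding start for 413 genes (2.08%). Of the 1501 genes, 765 (51.0%) were also the nearest gene of an N-CoR window with a Runx protein, which holds for 22.3% of all protein-coding genes. At the 568 promoter sites the nearest start belonged to a protein-coding gene in 425 cases (74.8%) and to a long non-coding RNA in 110 (19.4%).

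Among sites with no other factor within 1000 bp, the lowest-numbered at protein-coding starts was number 44, 77 bp upstream of CGREF1 (chr2:27342023-27342122), with an H3K4me3 summit at 30 bp and p300, AML1-ETO and AML1 summits no nearer than 15452, 32595 and 37803 bp. BCL2A1, which codes for an anti-apoptotic protein of the BCL2 family, had a site 146 bp upstream of its start (chr15:80263634-80263733) with ETS, PU.1 and IRF sequences, no H3K4me3 summit within 47089 bp and no other factor within 47340 bp. It was thus a promoter site without the mark. ABCG1, which codes for a cholesterol exporter, likewise had a site 43 bp upstream of a start and 19272 bp from H3K4me3. GRB2, an adaptor gene of receptor tyrosine kinase signalling, had one 917 bp downstream of its start with ETS core, PU.1 and C/EBP sequences, 1248 bp from AML1-ETO. The others of the 10 were at BTN3A2, H2BC5, SLC5A9, PLCL1, C14orf93 and H2BC10, with H3K4me3 summits at 181 to 1145 bp.

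Away from protein-coding starts, the lowest numbers were 32 in an intron nearest to CEP295NL (chr17:76889140-76889239) and 238 between genes nearest to DMRT2. Number 315 lay in an intron of RPTOR, the gene of a subunit of the mTOR complex, 30109 bp from the start with an E-box CACGTG, and 392 lay 2702 bp upstream of NPAS4, a gene of neuronal activity, with AP-1 and GC box sequences. Number 581, near ERCC1, a DNA repair gene, was 174 bp from an H3K4me3 summit although 10753 bp from any annotated start. The consensus sequences found thus differed between these sites, and sequences outside the set searched were not compared among them. The remaining 5 were nearest to ZFP36L1, VILL, TRIML1, EIF4E and PTPRA, of which TRIML1 and EIF4E carried the ETS core and PTPRA the PU.1 sequence.

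UBASH3B, which codes for a phosphatase that dampens tyrosine kinase signalling, was the nearest gene of 5 sites alone, the most among the genes named here. All 5 were in introns, 4638 to 90618 bp downstream of its start, and 1 of them had AML1-ETO, AML1 and p300 summits at 101, 107 and 160 bp, just outside the rule. Those with 4 sites were DOCK10, a guanine nucleotide exchange factor gene, FOXN3, HPCAL1, JARID2, which codes for a subunit of the Polycomb complex PRC2, MEF2C, a transcription factor gene, and SDCCAG8. At DOCK10 one site lay 27 bp upstream of the start and the other 3 within the locus, and no AML1 summit was closer than 77411 bp to any of them, while AML1-ETO was at 2915 to 35812 bp. At MEF2C, by contrast, AML1 summits lay 1004 to 2762 bp from all 4 sites. Windows with a Runx protein had these genes as their nearest in 2 (SDCCAG8) to 9 (FOXN3) cases. Genes with 3 sites were tied, and ADO, AUTS2 and BCL2A1 are named as the first by alphabet. Of these, ADO and BCL2A1 had no N-CoR window with a Runx protein.

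The lists of genes held shares between 0 and 32.4% nearest to a site alone, beside 7.57% of all protein-coding genes. Genes of corepressor complexes stood at 11 of 34 (32.4%, 17.4 to 50.5), inflammatory response genes at 12 of 38 (31.6%), blood stem cell transcription factors at 10 of 32 (31.3%), core histone genes at 21 of 73 (28.8%), myeloid genes at 10 of 39 (25.6%), LXR and lipid metabolism genes at 6 of 26 (23.1%), circadian genes at 4 of 18 (22.2%) and nuclear receptors at 7 of 47 (14.9%). Ribosomal protein genes (7.32%), retinoic acid response genes (6.25%), respiratory chain genes (6.02%), zinc finger genes of the ZNF series (5.71%) and interferon-stimulated genes (2.86%) were near or below the share of all genes, and none of 24 lymphoid or 21 erythroid and megakaryocyte genes was nearest to a site alone. These intervals over genes are a description and single out no list. Gene length and the distance between neighbouring genes also set how often a gene is nearest, and their part was not tested.

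**Figure D5:**
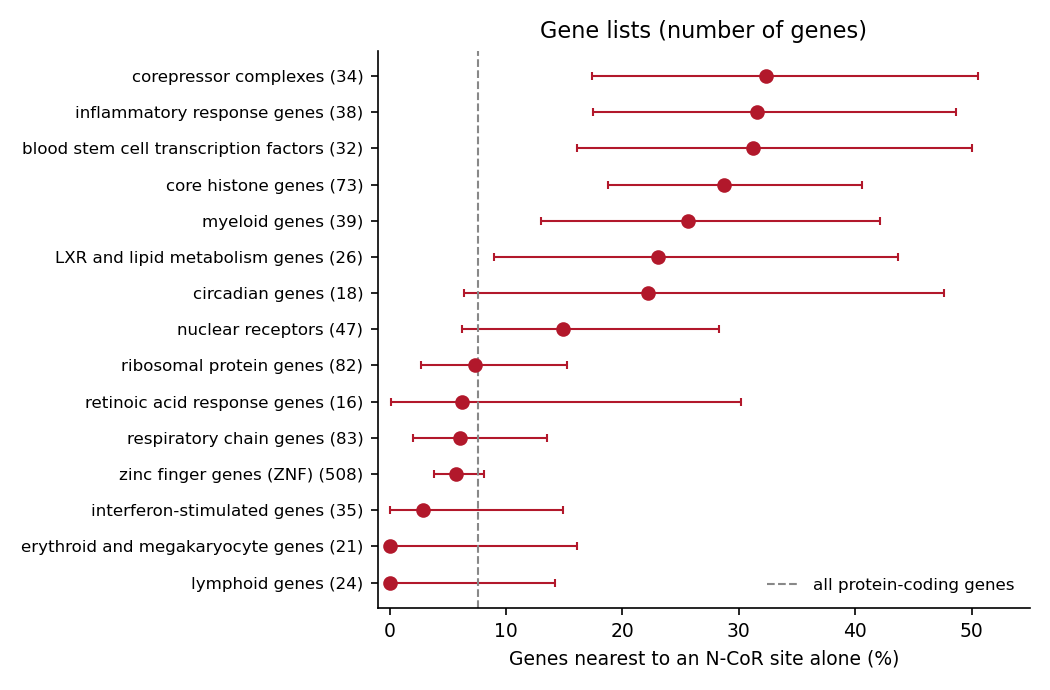
Share of each gene list (%) nearest to an N-CoR site alone, with the number of genes in brackets. Points are shares, lines are exact 95% intervals over genes and the dashed line is the share of all protein-coding genes (7.57%). The shares run from 0 for lymphoid genes to 32.4% for corepressor complexes.

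Most of these lists were also near N-CoR windows with a Runx protein. Such a window was nearest for 68.8% of the stem cell factors, 66.7% of the myeloid, 63.2% of the inflammatory, 61.5% of the lipid and 55.9% of the corepressor genes, against 22.3% of all genes. Only core histone genes had a lower share with a Runx protein (16.4%) than with a site alone (28.8%) among the lists above the share of all genes.

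Of 19 N-CoR windows within 1000 bp of a start of a corepressor gene, 4 were alone (21.1%, 6.05 to 45.6), near the 17.6% at all protein-coding starts. TBL1X and TBL1XR1, which code for subunits of the N-CoR complex, had one 343 and 290 bp downstream of a start, at chrX:9503276-9503375 with an ETS core, PU.1 and a Runx sequence, and at chr3:176914611-176914710 with an AML1-ETO summit at 328 bp. HDAC1 and TLE3, a deacetylase and a Groucho-type co-repressor gene, had one 139 and 84 bp upstream, with p300 summits at 291 and 152 bp. The site at TBL1X had its nearest other summit, of AML1-ETO, at 1443 bp, and the other 3 had one within 1000 bp. NR4A1, an orphan nuclear receptor gene, had 2 sites alone, 151 and 222 bp upstream of 2 of its starts and at least 11088 bp from any other factor. Of the lipid genes, SREBF1 (315 bp upstream), LPCAT3 (437 bp upstream) and ABCG1 had no other summit within 1000 bp of theirs.

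Of 14 N-CoR windows at starts of inflammatory response genes, a list that includes immediate early genes, 6 were alone (42.9%, 17.7 to 71.1). JUN and JUNB, whose products belong to AP-1, had sites 250 and 117 bp upstream with p300 at 273 and 108 bp. CCL5 and CXCL8, which code for chemokines, had sites 121 bp upstream and 714 bp downstream, the first with no other factor within 15947 bp and the second with summits of all 3 factors at 630 to 667 bp. Among myeloid genes, CEBPE, which codes for a transcription factor of granulocyte maturation, had 2 sites, 63 bp upstream of a start and 6 bp from another, both with ETS core and PU.1 sequences and at least 5490 bp from any other factor. PRTN3, which codes for a neutrophil granule protease, had one 29 bp upstream of its start, 9674 bp from p300, and LST1 had one 46 bp downstream with p300 at 111 bp. The isolated sites and those beside p300 thus occurred within the same lists.

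At starts of core histone genes, which code for the proteins of the nucleosome, sites alone made up a larger share of the N-CoR windows than for any other of the 15 lists. This group was looked at more closely after its count had been seen. Of 34 N-CoR windows within 1000 bp of a core histone start, 21 were alone (61.8%, 43.6 to 77.8), against 420 of 2385 (17.6%) at protein-coding starts in general. All 21 belonged to different genes, and they lay in the main histone cluster on chromosome 6 in 19 cases, where they made up 13.5% of the 141 sites alone of that chromosome. Of the 21, 15 were at genes of H2A (7) or H2B (8), 5 at H3 genes and 1 at an H4 gene. The 8 windows with a Runx protein were at H4 genes in 6 cases, with 1 each at an H2A and an H3 gene. The 5 windows with p300 only were at H4 genes in 2 cases, with 1 each at an H2A, an H2B and an H3 gene. These types were not set against their share of all core histone genes. Histone genes of 1 type are near copies of each other in their coding part, and how the alignment treated such copies was not tested.

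The windows of 3 such sites are shown because the sequence that recurs in them, CCAAT (or ATTGG on the other strand, both in capitals), was far more frequent in this group than in other sites alone. They lie upstream of H2BC4 (chr6:26124221-26124320), H2BC5 (chr6:26158146-26158245) and H2AC7 (chr6:26199580-26199679).
H2BC4: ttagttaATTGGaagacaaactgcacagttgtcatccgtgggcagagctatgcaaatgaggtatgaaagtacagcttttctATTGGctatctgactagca
H2BC5: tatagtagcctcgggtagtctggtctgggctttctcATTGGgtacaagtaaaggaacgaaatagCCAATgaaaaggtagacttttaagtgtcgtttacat
H2AC7: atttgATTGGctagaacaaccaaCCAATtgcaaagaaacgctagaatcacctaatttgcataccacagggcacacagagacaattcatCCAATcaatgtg

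CCAAT, the sequence of the factor NF-Y, was found in 19 of the 21 histone sites alone (90.5%, 69.6 to 98.8), and in 13 of them at least 2 times. It was found in 5 of the 13 other N-CoR windows at histone starts (38.5%, 13.9 to 68.4) and in 11.0% of the 399 sites alone at other protein-coding starts. Core histone promoters hold it often in any case, in 69.9% of 73 genes when 100 bp around a point 100 bp upstream of the gene are searched, against 19.0% of all protein-coding genes. Over all 1758 sites alone the share was 11.0%, no higher than in the flanks (11.6%). It was 3.02 points above that of the windows with a Runx protein (8.02%, interval of the difference 1.50 to 4.68). The octamer ATTTGCAT, known from H2B promoters, was in 6 of the 21 and in 3 of the other 1737 sites alone. No histone site alone held adjacent GGAA copies, and 1 of the 21 held the ETS core, against 109 of the 420 sites alone at protein-coding starts in general.

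The median place of the histone sites was 69 bp upstream of the start, with the site at H4C1 631 bp downstream, and 19 of the 21 had H3K4me3 within 1000 bp. At H2BC4 the site was number 1285, 117 bp upstream, with p300 at 231 bp and AML1 at 867 bp. At H2AC12 and H2BC17, p300 was at 104 and 185 bp, just beyond the rule, whereas at H2AC15, H2BC13 and H2AC14 it was at 6901, 23522 and 16685 bp, with an AML1-ETO summit at 998 bp beside H2BC13. In 12 of the 21 no summit of the 3 factors lay within 1000 bp. The histone sites alone therefore included both windows beside p300 and isolated ones.

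N-CoR sites alone stood late in the deposited order. The windows carry numbers in file order, which are not stated to be a rank of strength. With the list cut into 10 equal parts, 21 windows of the first part (2.10%, 1.30 to 3.19) were alone, 15.6% of the fifth part and 34.8% (31.9 to 37.9) of the last, and each part was above the one before. From the middle of the list on stood 1341 of the 1758 sites (76.3%). Repeats of at least 3 GGAA were found in 4.76% of the sites alone of the first such part, in 17.9% of those of the fourth and in 6.61% of those of the last. The histone sites stood earlier, with a median number of 4312 against 7128 for all sites alone. By chromosome, Y with its 1 window left out, the share of N-CoR windows that were alone ran from 11.3% on chromosome 16 to 24.2% on chromosome 6 and 21.5% on X.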

How the data were processed

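Kasumi-1 cells were profiled by ChIP-seq with antibodies to N-CoR, to both Runx proteins, to p300 and to H3K4me3. Per the study's methods and the submitters' processing notes, the authors called bases with CASAVA 1.6, aligned reads to hg19 (GRCh37) with Bowtie 0.12.8, allowing 2 mismatches, pooled replicates and called peaks with MACS2 2.0.10.20131216 at a p-value below 1e-20. The deposited lists give positions of 100 bp windows centred on summits, with no height, score or depth. H3K27me3 and the control library were not analysed here.

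Windows were classed as sharing at least 1 base. Distances run from summit to summit or to the nearest of 220784 GENCODE 44 starts lifted to GRCh37. Consensus sequences were searched on both strands of the genome (pysam 0.24.0, samtools 1.23.1), with windows shifted by 1000 bp as background. Exact binomial intervals (SciPy 1.17.1) and Newcombe intervals of differences treat windows as independent. No test between libraries was possible with 1 pooled list per antibody, and the scripts were tested on simulated data. Direction was also counted by chromosome.

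Named genes were those of the 10 lowest peak numbers at and away from protein-coding starts among sites with no other summit within 1000 bp, up to 10 genes with at least 3 sites, and up to 4 genes per list with a site within 1000 bp of a start. The members, lists and consensus sequences were chosen with earlier results of these data known. Tandem GGAA, tandem TG, the closer look at histone genes and the named repeat sites were chosen after values were seen. Alternatives changed the window width, the isolation distance, the lists used, the distances to starts and H3K4me3, the search width, the consensus and the part of the list.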

Additional observations from a re-analysis of the deposited data

How the results depend on the processing

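No paired analysis was possible because replicates were pooled before the lists were made and no comparison comes from a test between libraries. Shares are percentages of sites alone, and differences are percentage points against N-CoR windows with a Runx protein. With windows of 25 bp to either side, 35.7% were at promoters (difference 5.34), 30.6% near H3K4me3 (difference 7.76), 7.01% held 3 or more tandem GGAA, the ETS difference was −3.84 and the median distance to a start 3321.5 bp. The settings of 25, 500 and 1000 bp redefined both classes by the distance between summits, so the windows with a Runx protein changed too. With no other summit within 500 bp, the values were 20.2% (difference −12.4), 14.8% for H3K4me3 (difference turned to −10.7), 52.0% for the ETS core (difference 5.63), 33.6% for PU.1, 11.2% for the repeats and 6082 bp. At 1000 bp they were 18.4% (difference −14.5), 12.2% (difference turned to −13.9), 52.4% (difference 6.06), 34.0%, 11.5% and 6519 bp, with the AGGTCA difference at 1.23 and its interval reaching 0. Against AML1 and AML1-ETO windows only, they were 40.9% (difference 9.92), 36.5% (difference 12.6), 42.8% (difference −4.40), 6.93% for the repeats and 2335.5 bp, with the AGGTCA difference at 0.72 and its interval reaching 0. The first part of the N-CoR list, up to its middle, held 417 sites alone and 392 genes, with 27.6% at promoters, 20.9% near H3K4me3 (difference 1.10), 26.4% with PU.1, 13.4% with repeats, 4753 bp and an AGGTCA difference of 0.85, where the intervals of both differences reached 0. H3K4me3 within 500 bp gave 17.5% (difference turned to −0.45), and within 2000 bp 30.8%. Promoters within 500 and 2500 bp gave 27.2% and 42.8%, and protein-coding starts alone 23.9% (difference 2.65) and 13170.5 bp. Searches within 25 and 100 bp of the summit gave 29.1% and 60.5% for the ETS core (difference −2.79 at 100 bp), 17.2% and 45.3% for PU.1, 2.67% and 9.78% for Runx and 2.90% and 11.1% for AGGTCA. A search for GGAANT, with CCGGAA added, gave 52.3% (difference −3.85), and adding GGGTCA to AGGTCA 8.48% (difference 1.13, interval reaching 0). The count of 6-base sequences above the flanks was 146 with flanks 300 bp away, and 416 with 7-base sequences. Without windows of 3 or more tandem GGAA, chosen after seeing the data, the promoter difference was 3.11, the ETS share 40.7% and its difference −5.88. At least 2 and at least 4 copies, likewise, gave 18.1% and 7.57%.

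Leaving out each chromosome in turn gave an AGGTCA difference of 0.85 to 1.50, whose interval reached 0 without chromosome 1 or 2, and an H3K4me3 difference of 1.70 to 3.23, whose interval reached 0 without chromosome 6. None of the other 365 such values changed a direction or a call, while the promoter difference ran from 0.026 to 1.79 (lowest without chromosome 6) and the ETS difference from −1.89 to −0.10 (nearest 0 without chromosome 19). The difference in 3 or more tandem GGAA stayed at 7.57 to 8.17 points over these. Beyond these the cause of each change was not tested. The lists carry no depth, score or replicate, so neither weak binding at a site alone nor a missed peak of another factor nearby can be told from absence, and the mapping of reads in repeats and histone gene copies was not tested.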

Other observations

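Tandem TG dinucleotides were looked at after their values had been seen. Runs of at least 5 TG were found in 44 sites alone (2.50%, 95% interval 1.82 to 3.35), in 1.00% of their flanks, in 1.26% of N-CoR windows with a Runx protein and in 0.94% of those with p300 only. Sites with and without another summit within 1000 bp did not stand apart in this, at 2.63% and 2.44%.

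Some sequences were less frequent in the sites alone than in their flanks. The GFI1 sequence AATCNNNGC stood at 3.19% against 8.22%, the GATA sequence AGATAA at 4.32% against 5.89%, the TATA sequence TATAAA at 5.86% against 8.02% and the E-box CANCTG at 19.7% against 22.4%. Of these, TATAAA was more frequent than in N-CoR windows with a Runx protein (3.47%, difference 2.39 points, 1.29 to 3.65), and CANCTG less (28.1%, difference −8.38 points, −10.4 to −6.22).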
